A study of Mus musculus with 12 samples.

Results

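H3K27ac, histone H3 acetylated at lysine 27, a mark of active promoters and enhancers, was examined at 10 genes of the mesenchymal and contractile cytoskeleton in 4T1 mammary carcinoma cells: Vim, Acta2, Tagln, Tagln2, Tpm1, Tpm2, Myl9, S100a4, Cdh2 and Cald1. An interval was taken as belonging to a member where the deposited table gave that member as its gene name. This held for 37 of 126464 intervals and for 8 of the 10 genes, out of 22264 gene symbols with an interval. Tagln and Tagln2 had no interval under their own name. Values are described per interval and as the sum over all intervals of a gene.

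4T1 is a mouse mammary carcinoma line, unmodified here, and all 6 groups were treated for 48 h. Cells received vehicle, etomoxir at 50 µM, or etomoxir and SB204990 at 50 µM each, and each of these 3 with or without 5 mM acetate. The groups are called vehicle, etomoxir and etomoxir + SB204990, with the ending + acetate, or acetate alone, where acetate was added. SB204990 was never given without etomoxir. Acetate feeds the acetyl-CoA pool, etomoxir blocks the carnitine palmitoyltransferase step of fatty acid oxidation, and SB204990 blocks ATP citrate lyase, which makes acetyl-CoA from citrate. Each group had 2 libraries, one in each of a pair of sets named by a shared suffix (set 1 and set 2). Nothing in the labels says whether the libraries came from separate cultures, so the p-values measure the spread between these libraries, which may be technical. The values are reads scaled by a factor from added human chromatin (7.5%). The comparisons ask whether H3K27ac at these genes moved with acetate or with the inhibitors.

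The members build and regulate the filaments that give mesenchymal cells their shape and their contractile force. Vimentin forms the intermediate filaments of mesenchymal cells, whereas smooth muscle actin, the tropomyosins, the myosin light chain Myl9, caldesmon and the transgelins belong to or bind actin filaments. S100a4 is a calcium-binding protein that acts on non-muscle myosin, and N-cadherin, encoded by Cdh2, joins neighbouring mesenchymal cells. Many contractile genes are driven by serum response factor, which binds the CArG box and works with coactivators of the myocardin family. Several members are used as markers when carcinoma cells undergo an epithelial-to-mesenchymal transition.

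Reads in intervals ranged from 7179165 to 16676442 per library, and the scaling factors from 0.398 to 1. A factor of 1 occurred once in each set, so the factors of the 2 sets were on separate scales, and values are given for both. One library, etomoxir + SB204990 in set 2, was unlike the rest. Of its reads, 2.77% lay in the weakest 25% of intervals, against 0.990% to 1.41% in the others. It also had the fewest reads (7179165) and the factor of 1 in its set. Counts of members and of related genes called with it are given without it as well. A fit without 1 library sets a group with 1 set against groups with both sets, which are on separate scales. Of 10 markers of mammary epithelium, 8 had an interval, and their summed signal was 8318 to 20133 scaled reads per library, led by Krt8, Cldn4 and Cdh1 (means of 4048, 2816 and 2771). Of 7 markers of differentiated smooth muscle, 6 had an interval and summed to 595 to 1646, most of it at Smtn (mean 928). The defining genes Myocd and Des were at means of 2.14 and 4.31 scaled reads, and Actg2 had no interval. The summed signal was 319 to 839 for 6 of 6 fibroblast markers, 1462 to 3603 for 3 of 4 leukocyte markers, most of it at Cd68, and 466 to 1294 for 3 of 4 endothelial markers.

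The first question was where the mark lay at these genes. S100a4, Tpm1, Vim and Tpm2 had a broad interval over their start sites, Acta2, Myl9 and Cdh2 had none there, and the signal over the starts of Cald1, Tagln and Tagln2 was listed under the names of neighbours. The GENCODE annotation (mm10) gives the members 45 protein-coding start sites. Of these, 39 lay in an interval and 25 lay in an interval named after the member itself. By the table's own annotation, 15 of the 37 intervals were intergenic, 13 intronic, 5 exonic and 4 at transcription end sites, and none was annotated as promoter. The table gives each interval a single annotation, so a broad interval that holds a start site need not be annotated as promoter. Interval lengths ran from 183 to 71919 bp with a median of 752 bp, against 715 bp over all intervals.

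**Figure D1:**
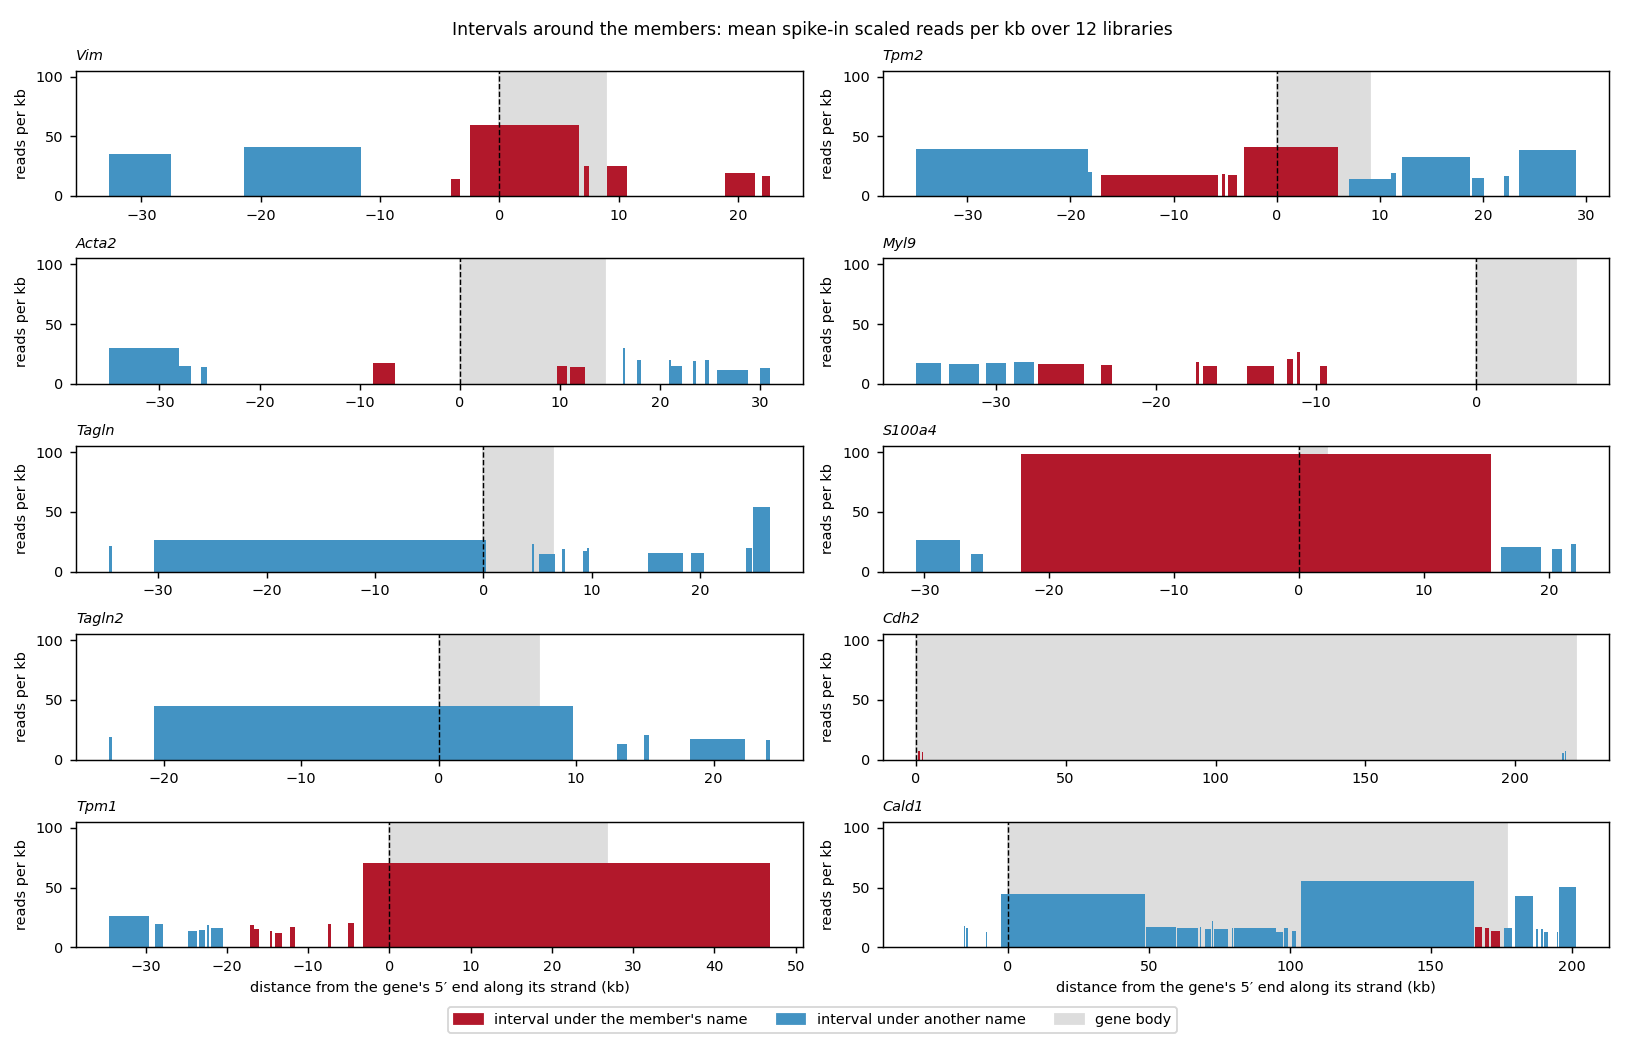
Intervals around the 10 members, drawn as distance in kb from the 5′ end of the gene along its strand (dashed line), with the mean of spike-in scaled reads per kb over 12 libraries as height. Red bars carry the member's name in the table, blue bars another gene's name, grey is the gene body, and intervals that reach past the window are cut at its edge. S100a4 (98.4 reads per kb), Tpm1 (70.7), Vim (59.3) and Tpm2 (40.9) have a red bar over the dashed line, Cald1, Tagln and Tagln2 have a blue one, and Acta2, Myl9 and Cdh2 have none.

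S100a4 had a single interval of 37613 bp (chr3:90581540-90619152, mm10 as for all positions here), with a mean of 3702 scaled reads over the 12 libraries. At 98.4 reads per kb it was the densest of the member intervals, and it stood at percentile 99.9 of all intervals in density and 99.6 in length. It also covers the gene bodies of S100a2, S100a3, S100a5 and S100a6, so the signal of S100a4 and of these neighbours cannot be told apart. Tpm1 had the longest member interval, of 71919 bp (chr9:66980749-67052667), which held all 16 of its start sites. Its mean was 5082 scaled reads (70.7 per kb), or 98.8% of the Tpm1 sum. The Vim interval (chr2:13571464-13580586, 9123 bp) held all 3 start sites, with a mean of 541 (59.3 per kb) and 81.5% of the Vim sum. The Tpm2 interval (chr4:43517847-43526958, 9112 bp) held all 4 start sites, with a mean of 372 (40.9 per kb) and 62.9% of the Tpm2 sum. A further 33.6% of the Tpm2 sum came from an interval of 11386 bp (chr4:43529459-43540844) that overlaps Tln1, the gene of the focal adhesion protein talin.

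The other named intervals were weaker. Those of Acta2 were 2 intronic ones (chr19:34243070-34244541 and chr19:34244840-34245915) and an intergenic one (chr19:34262068-34264283), which was the largest at a mean of 38.5 (17.4 per kb). Neither annotated start of Acta2 lay in an interval. The 8 intervals named after Myl9 all lay before the gene, with centres at -25964 to -9584 bp from its start, and 7 of them overlap Dlgap4. The strongest (chr2:156748033-156750947) had a mean of 48.8 and the nearest (chr2:156765647-156766093) a mean of 6.81. The start and the body of Myl9 lay in no interval. The 3 Cdh2 intervals lay inside the gene, the nearest centred 120 bp from the start by the table, and had 5.98 to 7.19 reads per kb against a median of 16.4 over all intervals. The 4 intervals named Cald1 lay in the 3′ part of the gene, with chr6:34769888-34773150 as the strongest (mean 44.1), and held 1.70% of the signal that overlaps the gene. The 10 start sites of Cald1 lay in 2 intervals named Gm13861 and Gm14547 (chr6:34596032-34647298 and chr6:34702300-34763713), with means of 2293 and 3435 (44.7 and 55.9 per kb). All 3 starts of Tagln2 lay in an interval named Igsf9 (chr1:172479365-172509800, mean 1369, 45.0 per kb). For Tagln, 1 of 2 starts lay at the edge of an interval named Sidt2 (chr9:45935833-45966444, mean 806, 26.3 per kb), which also overlaps Pafah1b2.

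Promoter sequence was read for the contrast between S100a4, with its start inside the densest interval, and Myl9, with no interval over its start. RefSeq (GRCm38.p6) gave windows for 8 of the 10 members, 9 windows in all, and Tagln and Cdh2 were not matched. Motifs were searched on both strands in the 250 bases before the start. A CArG box occurred in 1 of 9 member windows, that of Myl9, and in 1.47% of 32851 windows of the same length. A CArG-like element, with a single C or G among the 6 central letters, was added after the sequences had been seen and occurred in the Myl9 and Acta2 windows and in 7.24% of all windows. The letters TATAAA occurred in 3 of 9 member windows (Vim, S100a4 and a Cald1 window) and in 12.4% of all, GGGCGG in 4 of 9 and 32.7%, CATTCC in 4 of 9 and 12.6%, and the AP-1 motif TGANTCA in 1 of 9 and 6.75%. The windows of S100a4 (chr3:90603520-90603769, plus strand) and of Myl9 (chr2:156775214-156775419, plus strand, without its last bases, which lie in an annotated exon) are shown 5′ to 3′, as examples of a start inside an interval and a start in none. Capitals mark TATAAA, 31 to 26 bases before the start, in S100a4, and the CArG box, 161 to 152 bases before the start, and the CArG-like element, 99 to 90 bases before it, in Myl9.
S100a4: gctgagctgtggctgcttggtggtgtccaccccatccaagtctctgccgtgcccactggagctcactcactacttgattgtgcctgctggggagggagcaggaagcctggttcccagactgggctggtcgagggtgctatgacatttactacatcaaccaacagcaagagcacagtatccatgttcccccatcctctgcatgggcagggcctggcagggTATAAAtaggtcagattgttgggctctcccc
Myl9: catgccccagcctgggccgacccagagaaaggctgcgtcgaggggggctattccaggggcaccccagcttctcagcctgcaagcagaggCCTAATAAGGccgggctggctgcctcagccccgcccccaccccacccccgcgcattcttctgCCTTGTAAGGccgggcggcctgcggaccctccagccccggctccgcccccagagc
In the Acta2 window (chr19:34255374-34255623, minus strand) the CArG-like elements CCCTATATGG and CCTTGTTTGG lay 84 to 75 and 34 to 25 bases before the start, where no interval was listed. A match is a description of the letters and does not show that a factor is bound.

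The levels of the members across the treatments are given next, in scaled reads summed over a gene's intervals. In 7 of the 8 members with named intervals, all but Cdh2, the highest treatment mean was that of etomoxir + acetate. The lowest mean of these 7 was that of etomoxir + SB204990, except for Cald1, where vehicle was lower. Over all intervals, the scaled total was also highest in the etomoxir + acetate libraries (13652107 and 12914788) and lowest in etomoxir + SB204990 of set 1 (5353659). How many of all genes shared this order, or had treatments without overlap, was not counted. The reads behind a sum, before scaling, were 2436 to 10319 per library for Tpm1 and S100a4, 483 to 1225 for Vim and Tpm2, and 60 to 203 for Acta2, Myl9 and Cald1. Cdh2 had 3 to 17 reads, too few for a fold change.

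**Figure D2:**
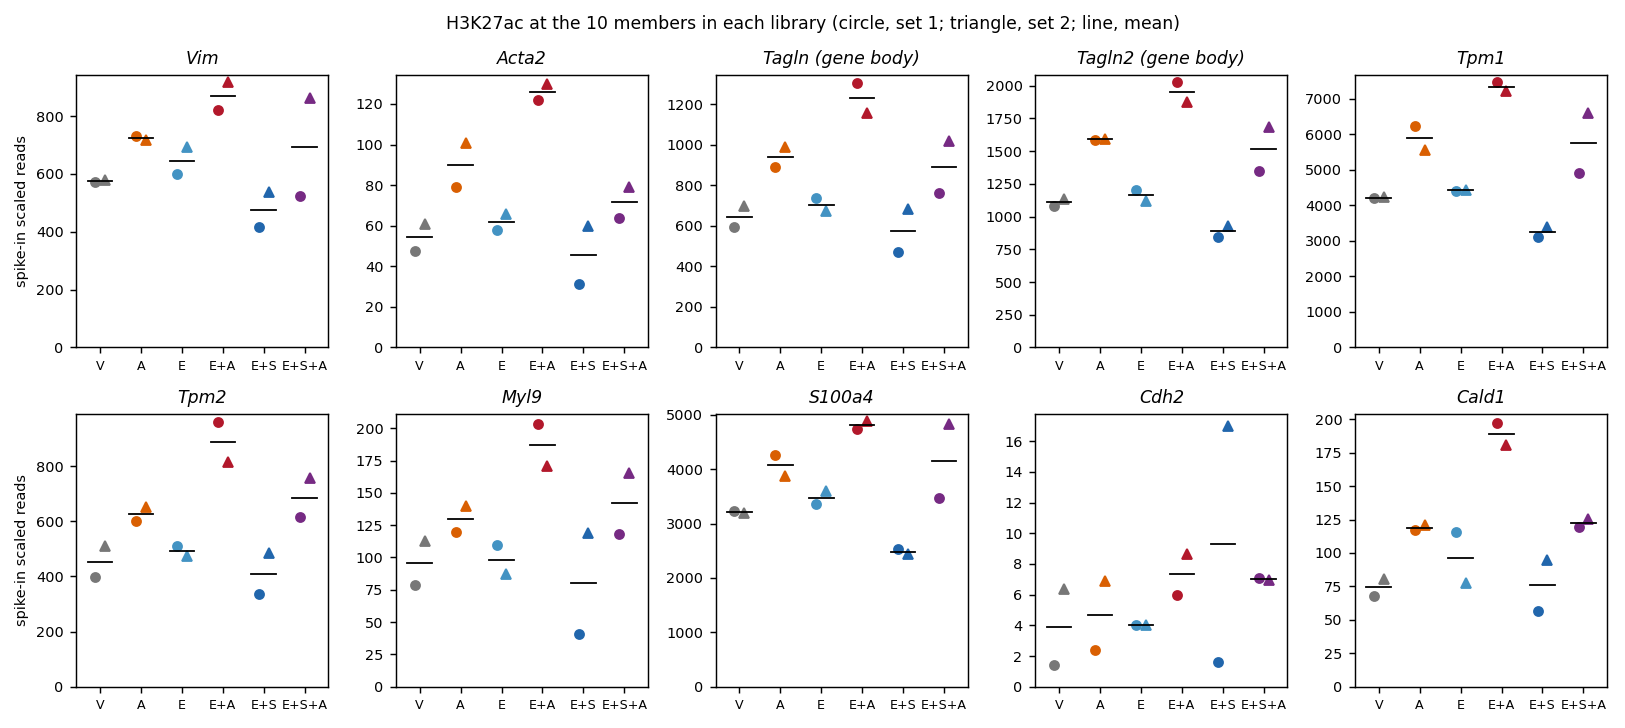
Spike-in scaled reads at the 10 members in each of 12 libraries, with circles for set 1, triangles for set 2 and a line for the mean of the 2 libraries (V, vehicle; A, acetate; E, etomoxir; S, SB204990). Each vertical axis starts at 0 and has its own scale. Tagln and Tagln2 are sums over whole intervals that touch the gene body or the 1 kb before it, for Tagln mostly signal from before the gene. Etomoxir + acetate has the highest mean in every panel except that of Cdh2, where the highest value is 17 in the etomoxir + SB204990 library of set 2.

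Vim encodes the intermediate filament protein vimentin. Without acetate its sums in sets 1 and 2 were 573 and 578 in vehicle, 599 and 693 in etomoxir and 416 and 538 in etomoxir + SB204990. With acetate they were 729.8 and 717 in acetate, 821 and 919 in etomoxir + acetate and 525 and 864 in etomoxir + SB204990 + acetate. The acetate and vehicle libraries did not overlap, nor did etomoxir + acetate and etomoxir, but the etomoxir + SB204990 + acetate library of set 1 lay below the etomoxir + SB204990 library of set 2. The average acetate effect over the 3 inhibitor backgrounds (no inhibitor, etomoxir, etomoxir + SB204990) was a log2 fold change of 0.42 ± 0.12 (SE; limma adjusted p = 0.0028). It was the smallest of the 7 members tested, and 7.71% of all genes had a value as low or lower. The test is limma's moderated test on log2(scaled reads + 1) in 1 fit of all 12 libraries, adjusted over all genes, and a gene or interval is called where its adjusted p is under 0.05.

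Tpm1 and Tpm2 encode tropomyosins, which wind along actin filaments and govern the access of myosin. The Tpm1 sums were 4195 and 4225 in vehicle, 4405 and 4429.9 in etomoxir and 3111 and 3385 in etomoxir + SB204990. Its sums with acetate were 6229 and 5553 in acetate, 7459 and 7220.3 in etomoxir + acetate and 4909 and 6606 in etomoxir + SB204990 + acetate. All 6 acetate libraries were above all 6 libraries without acetate. Tpm2 was less dense than Tpm1, at 27.3 against 68.0 scaled reads per kb covered, and its sums were 397 and 509 in vehicle, 511 and 473 in etomoxir and 335 and 483 in etomoxir + SB204990. With acetate, Tpm2 reached 600.0 and 652 in acetate, 958 and 813 in etomoxir + acetate and 614 and 757 in etomoxir + SB204990 + acetate. Its 6 acetate libraries were also all above the others. The average acetate log2 fold change was 0.68 ± 0.10 for Tpm1 and 0.69 ± 0.12 for Tpm2, with limma adjusted p of 1.5e-05 and 3.2e-05.

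Acta2 encodes smooth muscle actin, and Myl9 the regulatory light chain that is phosphorylated to switch on myosin. Acta2 sums were 47.7 and 61.0 in vehicle, 57.7 and 65.9 in etomoxir and 31.5 and 60 in etomoxir + SB204990. They reached 79.1 and 101 in acetate, 122 and 129.6 in etomoxir + acetate and 64.0 and 78.9 in etomoxir + SB204990 + acetate. Etomoxir + acetate was highest in both sets, and within each inhibitor background the acetate libraries were above those without, although the lowest acetate value lay just under the highest etomoxir value. Myl9 sums were 78.5 and 113 in vehicle, 109.7 and 87.0 in etomoxir and 41.0 and 119 in etomoxir + SB204990. With acetate they were 119.5 and 139.6 in acetate, 203 and 171 in etomoxir + acetate and 118 and 166 in etomoxir + SB204990 + acetate. The 2 etomoxir + SB204990 libraries of Myl9 differed by more than any other pair of this gene, and the set 2 library lay just above the lowest library with acetate. The average acetate log2 fold change was 0.81 ± 0.19 for Acta2 and 0.79 ± 0.20 for Myl9 (limma adjusted p = 0.00045 and 0.00095), and 91.5% and 89.0% of all genes had a value as low or lower. The Myl9 intervals lie over or beside Dlgap4, and which gene they belong to was not tested.

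Cald1 encodes caldesmon, which binds actin and restrains its interaction with myosin. Under its own name the Cald1 sums were 67.8 and 80.8 in vehicle, 115 and 77.3 in etomoxir and 57.0 and 95 in etomoxir + SB204990. The matching sums with acetate were 117 and 121 in acetate, 197 and 180.5 in etomoxir + acetate and 119.7 and 126 in etomoxir + SB204990 + acetate. The lowest acetate value was just above the highest value without acetate. Its average acetate log2 fold change was 0.80 ± 0.17 (limma adjusted p = 0.00016). Summed instead over all 18 intervals that touch the gene body or the 1 kb before it, a choice made after the names were seen, Cald1 held 4983 and 5080.2 in vehicle, 5945 and 5733 in etomoxir and 3892 and 4633 in etomoxir + SB204990. With acetate the gene-body sums were 7459.7 and 6779 in acetate, 10304 and 9860.4 in etomoxir + acetate and 6403 and 8468 in etomoxir + SB204990 + acetate. These sums, which rest on far more reads, also showed no overlap between libraries with and without acetate, and gave an average log2 fold change of 0.69 ± 0.10 (limma adjusted p = 2.1e-10).

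Tagln and Tagln2 encode transgelins, which cross-link actin filaments, Tagln being a marker of contractile smooth muscle. Since neither had an interval under its own name, their values are sums over whole intervals that touch the gene body or the 1 kb before it. Most of the Tagln sum came from the interval named Sidt2, which reached from -30.386 to 0.225 kb from the Tagln 5′ end. The Tagln values are therefore mostly signal from before the gene. Tagln stood at 595 and 697 in vehicle, 736 and 676 in etomoxir and 469 and 685 in etomoxir + SB204990. With acetate it stood at 891 and 988 in acetate, 1306 and 1159.7 in etomoxir + acetate and 763 and 1017 in etomoxir + SB204990 + acetate. The libraries with and without acetate did not overlap, by a narrow margin between etomoxir in set 1 and etomoxir + SB204990 + acetate in set 1. Tagln2 stood at 1079 and 1137 in vehicle, 1202 and 1121 in etomoxir and 844 and 930.0 in etomoxir + SB204990. With acetate Tagln2 reached 1586 and 1594 in acetate, 2026 and 1872 in etomoxir + acetate and 1347 and 1686 in etomoxir + SB204990 + acetate. Its libraries with and without acetate were likewise apart. The average acetate log2 fold change was 0.66 ± 0.11 for Tagln and 0.68 ± 0.11 for Tagln2 (limma adjusted p = 1.8e-08 and 4.5e-09). Per kb, the Tagln interval held 26.3 scaled reads and the Tagln2 interval 45.0, and both are shared with the neighbouring genes whose names they carry.

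S100a4, known also as fibroblast-specific protein, stood at 3234 and 3202 in vehicle, 3361 and 3596 in etomoxir and 2535 and 2436 in etomoxir + SB204990. With acetate it stood at 4259.9 and 3877 in acetate, 4746 and 4894 in etomoxir + acetate and 3461 and 4824 in etomoxir + SB204990 + acetate. Within each inhibitor background the libraries with acetate were above those without, although the lowest acetate library, etomoxir + SB204990 + acetate in set 1, lay below the etomoxir library of set 2. The average acetate log2 fold change was 0.51 ± 0.10 (limma adjusted p = 0.00010), and 16.9% of all genes had a value as low or lower. Cdh2, which encodes N-cadherin, was the least marked member. Its sums were 1.40 and 6.34 in vehicle, 4.00 and 4.01 in etomoxir and 1.59 and 17 in etomoxir + SB204990. With acetate they were 2.41 and 6.89 in acetate, 6 and 8.64 in etomoxir + acetate and 7.11 and 6.94 in etomoxir + SB204990 + acetate. The highest value was that of the etomoxir + SB204990 library of set 2, which stood apart over all intervals, and without it the range was 1.40 to 8.64. By mean, 7 of the 8 named members passed the filter of 10 scaled reads and Cdh2 did not, so it was not tested under its own name.

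Set against all gene symbols, the summed signal placed Tpm1 at percentile 99.6, S100a4 at 98.9, Vim at 83.3 and Tpm2 at 80.9. Myl9, Cald1 and Acta2 stood at percentiles 44.4, 43.0 and 36.0, and Cdh2 at 8.31. Among sums over whole intervals that touch a gene body, whatever name they carry, Cald1 stood at percentile 99.2 (mean 6628 scaled reads, 39.2 per kb covered). Tagln2 stood at 86.0 and Tagln at 75.5, the latter mostly by an interval that lies before the gene. Per kb covered under the members' own names, the order was S100a4 (98.4 scaled reads), Tpm1 (68.0), Vim (43.6) and Tpm2 (27.3), then Myl9, Acta2 and Cald1 close together at 15.4 to 16.5, and Cdh2 last (6.71). In bulk chromatin, a mark in fewer cells and a weaker mark per cell cannot be told apart.

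The acetate comparisons ask whether the mark rose when acetate was added to each inhibitor background. With acetate alone, none of the 7 members tested passed an adjusted p of 0.05, with log2 fold changes of 0.33 to 0.72 over vehicle. In limma, 0 of 7 were called (background 0% of 19458 genes), 4 of 7 had an unadjusted p under 0.05, as had 42.9% of all genes, and edgeR called 0 (its background 0%). The 4 were Acta2 (0.72 ± 0.33), Cald1 (0.68 ± 0.29), Tpm1 (0.48 ± 0.17) and Tpm2 (0.48 ± 0.21), with adjusted p of 0.10 to 0.11. Myl9, S100a4 and Vim were at 0.45 ± 0.35, 0.34 ± 0.18 and 0.33 ± 0.21. Without the etomoxir + SB204990 library of set 2, which enters this comparison only through the shared spread, these 4 genes were called (background 61.2%). Because the factors of the 2 sets are on separate scales, the fit was also made with the set as a term. It called Tpm1 alone of the 7 members in this comparison (background 20%), 7 of 7 with acetate on etomoxir (background 83.1%) and 7 of 7 on etomoxir + SB204990 (background 65%). The median over the members was 0.48 against 0.48 over all genes.

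**Figure D3:**
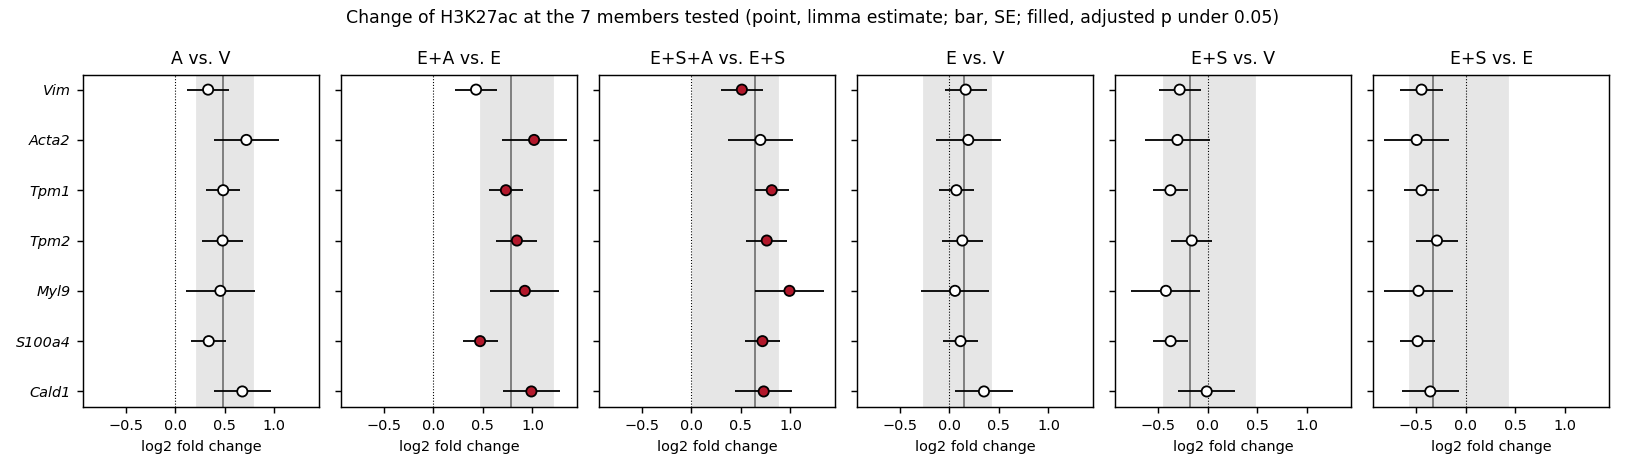
Log2 fold change ± SE of the 7 members tested in 6 comparisons, from 1 limma fit over 12 libraries (V, vehicle; A, acetate; E, etomoxir; S, SB204990). Filled points have an adjusted p under 0.05, the grey line is the median of all genes and the band their 5th to 95th percentile. Points are filled for 6 of 7 members when acetate was added to etomoxir or to etomoxir + SB204990 and for none in the other comparisons shown. The points lie around the grey line.

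Added to etomoxir, acetate was accompanied by a rise in 6 of 7 members (background 78.2% higher). Tpm1 rose from 4417 ± 17.6 to 7339.7 ± 169 scaled reads (SD, n = 2), a log2 fold change of 0.73 ± 0.17 (limma adjusted p = 0.0029). Tpm2 rose by 0.84 ± 0.21, Cald1 by 0.99 ± 0.29 and Acta2 by 1.02 ± 0.33 on the log2 scale (limma adjusted p = 0.0030, 0.0056 and 0.0094). Myl9 and S100a4 rose by 0.92 ± 0.35 and 0.47 ± 0.18 (limma adjusted p = 0.021 and 0.020). Vim, at 0.43 ± 0.21, did not pass (limma adjusted p = 0.065). The member median of 0.84 stood beside 0.79 over all genes. Without etomoxir + acetate in set 1, 2 of 7 members were called (background 28.8%), without etomoxir in set 2, 3 of 7 (background 37.9%), and without the etomoxir + SB204990 library of set 2, 7 of 7 (background 92%). With median-of-ratios and total-sum scaling none of the 7 was called (0% of all genes), and S100a4 turned to -0.40 and -0.27 and Tpm1 to -0.14 and -0.011, as did Tpm2 with median-of-ratios scaling (-0.027).

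Added to etomoxir + SB204990, acetate was accompanied by a rise in 6 of 7 members (background 57.7% higher). Tpm1 rose from 3248 ± 193 to 5758 ± 1199.9 scaled reads (SD, n = 2), a log2 fold change of 0.81 ± 0.17 (limma adjusted p = 0.0065). S100a4 rose by 0.72 ± 0.18, Tpm2 by 0.76 ± 0.21, Cald1 by 0.73 ± 0.29 and Vim by 0.51 ± 0.21 (limma adjusted p = 0.0065, 0.0081, 0.035 and 0.043). Myl9 rose by 0.99 ± 0.35 (limma adjusted p = 0.021), with 1.51 in set 1 and 0.47 in set 2, and its groups overlapped, as did those of Vim. Acta2 was at 0.70 ± 0.33 and missed the threshold (limma adjusted p = 0.069). The sets differed widely here, from 0.45 in set 1 and 0.99 in set 2 for S100a4 to 1.00 in set 1 and 0.39 in set 2 for Acta2. The members' median of 0.73 stood beside 0.64 over all genes. The size of the rise turned on the etomoxir + SB204990 library used. At Myl9 the set 2 library held 119 scaled reads, against 118 and 166 with acetate. It held 60 against 64.0 and 78.9 at Acta2, and 95 against 119.7 and 126 at Cald1. At S100a4 it held 2436 against 3461 and 4824. Without the etomoxir + SB204990 library of set 2 all 7 were called (background 91.4%), with Myl9 at 1.75, Acta2 at 1.15, Cald1 at 1.09 and S100a4 at 0.69. Without the etomoxir + SB204990 + acetate library of set 2 none of the 7 was called (background 0%), and without the etomoxir + SB204990 library of set 1, 2 were (background 19.1%). Under median-of-ratios and total-sum scaling none was called (0.00514% and 0% of all genes), and Vim turned to -0.055 and -0.16.

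Averaged over the 3 backgrounds, the acetate effect was called in all 7 members tested, with a background of 88.2% of 19458 genes higher, so the count of members does not set them apart. The members ran from Vim (0.42) and S100a4 (0.51) to Myl9, Cald1 and Acta2 (0.79, 0.80 and 0.81), with Tpm1 and Tpm2 between. Their median was 0.69, and that of all genes 0.63. Relative to the median of all genes, Vim and S100a4 stood at -0.21 and -0.12, and Acta2, Cald1 and Myl9 at 0.18, 0.17 and 0.16, differences that were not called when the median was scaled out (adjusted p of 0.99 or more with median-of-ratios scaling). The average was called in 7 of 7 whichever single library was left out, with 98.5% of all genes higher without the etomoxir + SB204990 library of set 2. Over gene bodies, 8 of 9 members tested of 14146 genes were called (background 97.1%). The exception was Cdh2, at 0.62 ± 0.34 (limma adjusted p = 0.066), with 1.39 in set 1 and -0.14 in set 2. All 9 were called without the etomoxir + SB204990 library of set 2 (background 99.6%). Markers of other cell types moved in the same direction: 8 of 8 epithelial, 5 of 5 fibroblast, 4 of 4 smooth muscle, 3 of 3 endothelial and 2 of 3 leukocyte markers tested were called higher, with list medians of 0.60 to 0.71, and their part in the members' values was not tested.

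Whether the acetate effect differed between the backgrounds was tested by interaction terms. None of the 7 members was called for either term, none had an unadjusted p under 0.05 (0.159% and 0.0565% of all genes had), and edgeR called 0 (background 0% for both terms and tools). The interaction with etomoxir had a median of 0.30 over the members and 0.30 over all genes, and that with etomoxir + SB204990 a median of 0.28 and 0.16. The latter term uses the library that stood apart. Without it none of the 7 was called (background 0%), Myl9 (1.29) and Tpm2 (0.55) had unadjusted p of 0.00015 and 0.046 (limma adjusted p = 0.32 for both) beside 14.2% of all genes at an unadjusted p under 0.05, and the median was 0.42 over the members and 0.43 over all genes. With only the set 2 library of etomoxir + SB204990 kept, the median was -0.0065 over the members and -0.13 over all genes, with none of the 7 called (background 3.36% lower). The 6 calls with etomoxir and 0 without it are therefore not shown to be a difference between the backgrounds.

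Next, the inhibitors were compared without acetate. Etomoxir against vehicle gave log2 fold changes of 0.06 to 0.35, with 0 of 7 members called by limma (background 0.0154% higher), 0 at an unadjusted p under 0.05 (0.684% of all genes) and 0 called by edgeR (its background 0.0103%). The highest was Cald1, whose etomoxir libraries were at 115 and 77.3 against 67.8 and 80.8 in vehicle. Etomoxir + SB204990 against vehicle gave -0.42 to -0.01, again with 0 of 7 called by limma (background 0% lower and 0.00514% higher). Tpm1 (-0.38 ± 0.17) and S100a4 (-0.37 ± 0.18) had an unadjusted p under 0.05 (limma adjusted p = 0.78 and 0.78), as had 4.24% of all genes, and edgeR called 0 (its background 0% lower and 0.00514% higher). Both of their etomoxir + SB204990 libraries were below both vehicle libraries, as were those of Vim, whereas those of Acta2, Tpm2, Myl9 and Cald1 overlapped with vehicle. The share of all genes without overlap between these groups was not counted, so this split does not set members apart from other genes. Etomoxir + SB204990 against etomoxir gave -0.49 to -0.29, with 0 called (background 0% lower), 3 at an unadjusted p under 0.05, namely S100a4, Tpm1 and Vim, beside 21.0% of all genes, and 0 by edgeR (its background 0%).

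These comparisons turn on the library that stood apart. At Acta2, Tpm2, Myl9 and Cald1 its values were 60, 483, 119 and 95 scaled reads, against 31.5, 335, 41.0 and 57.0 in set 1. Vehicle in set 1 held 47.7, 397, 78.5 and 67.8 at these genes. Without the library that stood apart, 1 etomoxir + SB204990 library remains, of set 1 and taken to vary like the other groups. The fit sets it against libraries of both sets, whose factors are on separate scales, so set and treatment are mixed. All 7 members were then lower than in etomoxir (background 63.8% lower), from -1.23 for Myl9 to -0.46 for S100a4, and Myl9 alone was lower than in vehicle (-1.18, limma adjusted p = 0.0032, background 12.3% lower). Without the library of set 1 instead, the member median was 0.10 against vehicle, beside 0.11 over all genes, and -0.04 against etomoxir, beside -0.04, and none of the 7 was called in either comparison (background 5.47% higher and 0.139% lower against vehicle, 4.94% higher and 1.15% lower against etomoxir).

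With acetate present, adding etomoxir gave log2 fold changes of 0.25 to 0.66 over acetate alone, with 0 of 7 called by limma (background 0.0771% higher), 2 at an unadjusted p under 0.05 (Cald1 and Tpm2, beside 32.6% of all genes) and 0 by edgeR (its background 0.0668%). Etomoxir + SB204990 + acetate against etomoxir + acetate gave -0.81 to -0.24, with 0 called (background 0.00514% lower), 3 at an unadjusted p under 0.05 (Acta2, Cald1 and Tpm1, beside 38.7% of all genes) and 0 by edgeR (its background 0.00514%). Acta2 was the lowest of these, with 64.0 and 78.9 against 122 and 129.6 scaled reads and no overlap. Without the etomoxir + SB204990 library of set 2, Acta2 and Cald1 were called lower in this comparison (background 55.6%) and Cald1, Myl9 and Tpm2 higher in etomoxir + acetate than in acetate (background 43.5%).

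The size and the calls of these values rest on the spike-in factor, and so does the direction of some. With each library scaled to its own reads instead, the shift of all genes in the average acetate effect fell from 0.63 to 0.01 with total-sum scaling and to -0.01 with median-of-ratios scaling, and none of the 7 members was called. On the total-sum scale Acta2, Cald1 and Myl9 were at 0.19, 0.18 and 0.17 and Tpm2 and Tpm1 at 0.07 and 0.05. Vim and S100a4 turned negative, at -0.20 and -0.12, and were also negative with median-of-ratios scaling (-0.22 and -0.14). The adjusted p on the total-sum scale was 0.26 or more. Where the factor multiplied each library's share of reads rather than the reads themselves, all 7 stayed positive, from 0.22 for Vim to 0.61 for Acta2, beside 0.43 over all genes, with an adjusted p of 0.40 or more. 

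**Figure D4:**
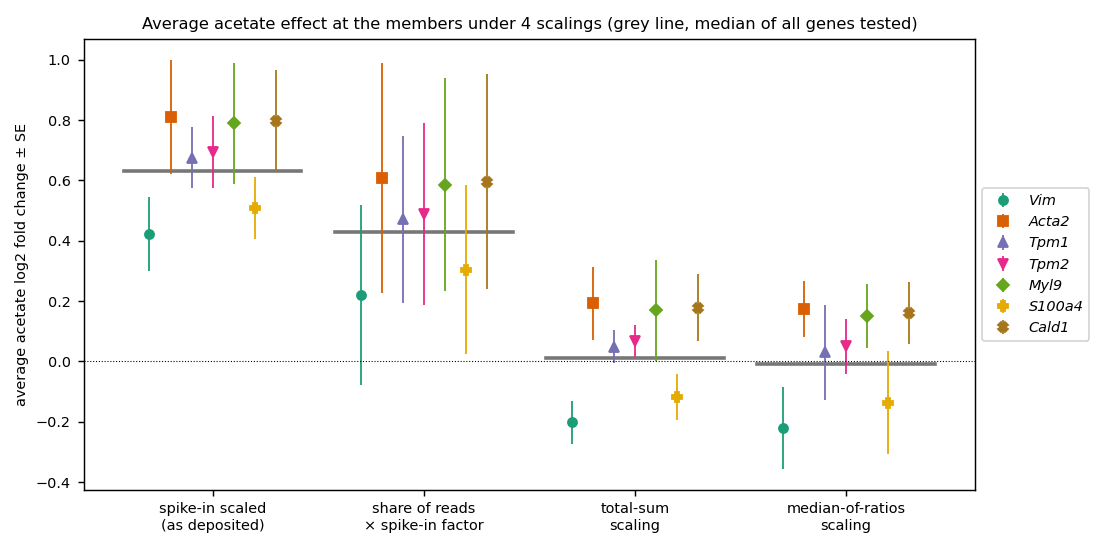
Average acetate log2 fold change ± SE of the 7 members tested under 4 scalings of the 12 libraries, with the median of all genes as a grey line. On the spike-in scale all members are between 0.42 and 0.81, and on the total-sum and median-of-ratios scales they spread around 0 with Vim and S100a4 below it.

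Single intervals were tested too. Of the 37 named intervals 23 reached a mean of 10 scaled reads and were tested, among 63903 in all. The average acetate effect was called in 20 of 23 (background 77.2% higher), from 0.16 to 1.197 over the 23. Among those with a mean of at least 50, the most changed was the Tpm2 interval over Tln1, at 0.84 ± 0.13, followed by the intervals over the starts of Tpm1 (0.68 ± 0.10) and Tpm2 (0.62 ± 0.12), with limma adjusted p of 2.8e-09, 3.2e-10 and 7.8e-07. The S100a4 interval was at 0.51 ± 0.10 and that over the Vim start at 0.38 ± 0.11 (limma adjusted p = 1.6e-06 and 0.0013). None of the 23 was called with median-of-ratios or total-sum scaling (0% and 0.0923% of all intervals), where the Vim start turned to -0.26 and -0.25, S100a4 to -0.14 and -0.12 and the Tpm2 start to -0.027 and -0.0090. The weaker Vim interval chr2:13595882-13596582, at 0.16 ± 0.31, was the lowest of the 23 and not called (limma adjusted p = 0.61). The highest, named after its value was seen, was a weak interval inside Dlgap4 listed as Myl9 (chr2:156758340-156759218, mean 12.8), at 1.197 ± 0.31 (limma adjusted p = 0.00040).

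The Tpm2 interval over Tln1 held 114 and 160.0 scaled reads in vehicle, 158 and 149 in etomoxir and 90.4 and 180.0 in etomoxir + SB204990. With acetate it held 169.6 and 233, 359 and 299.5 and 226 and 248 in the same backgrounds. Within each background its libraries with acetate were above those without, and etomoxir + acetate was highest in both sets. In acetate against vehicle, 20 of 23 intervals were positive, from -0.38 to 1.04, and 0 of 23 were called by limma (background 0.0955% higher), 7 had an unadjusted p under 0.05, beside 26.5% of all intervals, and edgeR called 0 (its background 0.117%). With etomoxir, 13 of 23 rose (background 56.4%), led among the stronger ones by the Tln1-overlapping interval (1.09 ± 0.23), Tpm1 (0.73 ± 0.17) and the Tpm2 start (0.68 ± 0.20). With etomoxir + SB204990, 8 of 23 rose (background 27.4%), led by the Tln1-overlapping interval (0.89 ± 0.23), Tpm1 (0.81 ± 0.17) and S100a4 (0.72 ± 0.17). This order is not firm, since the Tln1-overlapping interval held 90.4 and 180.0 in the 2 etomoxir + SB204990 libraries, against 226 and 248 with acetate. Neither etomoxir nor etomoxir + SB204990 against vehicle had a called interval among the 23 (background 0.0563% and 0.0313% higher, 0.00626% and 0.0219% lower), and 0 and 2 had an unadjusted p under 0.05 in limma, beside 1.41% and 5.06% of all intervals, with 0 called by edgeR (its background 0.0532% and 0.0501% higher, 0.00782% and 0.0313% lower). With the etomoxir + SB204990 library of set 2 left out, 6 intervals were called with acetate on vehicle, 17 on etomoxir, 17 on etomoxir + SB204990 and 22 in the average (background 21.2%, 76.8%, 71.6% and 94.8% higher), and 3 were lower in etomoxir + SB204990 than in vehicle (background 3.92% lower).

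Of the intervals over start sites that carry other names, those over Cald1 rose by 0.73 ± 0.10 and 0.66 ± 0.10 in the average, the one over Tagln2 by 0.68 ± 0.10 and the one at Tagln by 0.66 ± 0.10 (limma adjusted p = 2.8e-11, 6.2e-10, 8.8e-10 and 7.6e-09). With etomoxir + acetate against etomoxir, the gene-body sums of Tagln and Tagln2 rose by 0.80 ± 0.20 and 0.75 ± 0.19 (limma adjusted p = 0.00016 and 0.00028), among 7 of 9 members called (background 91.9%). In etomoxir + SB204990 + acetate against etomoxir + SB204990, they rose by 0.63 ± 0.20 and 0.77 ± 0.19 (limma adjusted p = 0.0023 and 0.00045), again among 7 of 9 (background 86.5%). In acetate against vehicle, 5 of 9 were called by this sum (background 52.4%), namely Cald1, Tagln, Tagln2, Tpm1 and Tpm2, with Tagln at 0.54 ± 0.20 and Tagln2 at 0.52 ± 0.19 (limma adjusted p = 0.037 for both). These counts without the etomoxir + SB204990 library of set 2 were 9 of 9 on etomoxir, 9 of 9 on etomoxir + SB204990 and 6 of 9 on vehicle (background 95.8%, 95.2% and 79.1%).

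Related genes were read as a frame for the members. Of 25 other actomyosin and actin-binding genes, 22 had an interval and 20 were tested, and all 20 were called higher in the average acetate effect (median 0.69, background 88.2% of all genes). The largest were the cytoplasmic actin Actg1 (1.09 ± 0.32) and the light chains Myl6 (0.80 ± 0.18) and Myl12b (0.76 ± 0.15). The smallest were the light chain kinase Mylk (0.55 ± 0.13), the non-muscle myosin heavy chain Myh10 (0.59 ± 0.11) and vinculin, Vcl (0.62 ± 0.11). Of 9 symbols of the serum response factor axis, 7 had an interval and 6 were tested and called (median 0.62). They ran from Rock1, Mrtfb and Mrtfa (0.56 ± 0.12, 0.56 ± 0.12 and 0.61 ± 0.11) to Rhoa, Srf and Rock2 (0.64 ± 0.11, 0.71 ± 0.11 and 0.74 ± 0.15). Of the cadherin and intermediate filament relatives, 3 of 4 tested were called, nestin, Nes, a filament gene of progenitor cells, at 0.86 ± 0.11 and the cadherins Cdh1 and Cdh3 at 0.72 ± 0.10 and 0.72 ± 0.13, with Cdh11 at 0.52 ± 0.29 and not called. All 3 S100 relatives tested were called, with S100a6, S100a10 and S100a11 at 0.58 ± 0.18, 0.62 ± 0.10 and 0.59 ± 0.10. The S100a6 sum holds intervals under its own name (mean 125) and leaves out the S100a4 interval that covers its gene body. Of the 33 genes tested over these lists, 31 rose with acetate on etomoxir (background 78.2%) and 27 with acetate on etomoxir + SB204990 (background 57.7%). The latter calls were lost without the etomoxir + SB204990 + acetate library of set 2. Over all genes, calls were also fewer there without etomoxir + SB204990 in set 1, and on etomoxir without etomoxir + acetate in set 1. In acetate, etomoxir and etomoxir + SB204990 against vehicle, 0 of 33 were called by limma, 23, 0 and 6 had an unadjusted p under 0.05 (42.9%, 0.684% and 4.24% of all genes had), and edgeR called 0. With the etomoxir + SB204990 library of set 2 left out, 33, 32 and 30 rose with acetate on etomoxir, etomoxir + SB204990 and vehicle (background 92%, 91.4% and 61.2%), all 33 in the average, Cdh11 included (background 98.5%), and 3 were lower in etomoxir + SB204990 than in vehicle (background 12.3%). The medians of the lists in the average were 0.59 to 0.72, beside 0.63 over all genes.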

How the data were processed

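H3K27ac ChIP-seq was measured in 12 libraries of 4T1 cells, 2 in each of 6 treatments. The authors aligned reads to mm10 with the human genome GRCh38 for the spike-in, merged the intervals of all libraries and deposited a signal per interval and library, reads in the interval multiplied by a spike-in factor (deepTools is listed in the submitters' processing notes). Dividing by each library's smallest step gave whole reads for 100% of values within 0.01. The members and lists were chosen with earlier results of these data known. The nearest-gene name in the table assigned intervals, and 12 rows with no gene symbol were left out of gene sums. Scaled values were summed per gene and tested as log2(value + 1) with limma 3.58.1 in R 4.3.3 for features with a mean of at least 10, in 1 fit of 6 group means with an intensity trend, with Benjamini-Hochberg adjustment over all features. edgeR 4.0.16 on the recovered reads was an alternative. The scripts were tested on simulated data. Intervals were named where they were the largest or nearest to the start of a member, or were among the 3 most changed of a comparison, given a call, 1 direction in both sets and a mean of 50 or more. Related genes were named for the 3 largest and 3 smallest average acetate changes per list. Gene body sums, the CArG-like motif and the fit without the library that stood apart were chosen after seeing the data. GENCODE and RefSeq annotation gave start sites and promoters. Whether the set numbers pair the libraries is not settled. Over 15 pairs of treatments the correlation over genes of set differences was -0.22 to 0.60, above 0.1 in 4. Such a correlation leaves out a shift common to all genes, so it cannot show a difference of scale between the sets.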

Additional observations from a re-analysis of the deposited data

How the results depend on the processing

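Counts of members called were recomputed for 11 comparisons of genes and 6 of intervals under 25 settings, and 339 of 405 values stayed within 1.5 times the reported count and 66 did not. Under median-of-ratios or total-sum scaling, or with the factor applied to each library's share of reads, the counts for acetate on etomoxir, acetate on etomoxir + SB204990 and the average acetate effect went to 0, for genes and for intervals. With the library set as a replicate block, 1 member gene was called in acetate against vehicle, and the block gave 7 genes each for acetate on etomoxir, acetate on etomoxir + SB204990 and the average (20.0%, 83.1%, 65.0% and 90.3% of all genes called), and 14, 10 and 21 intervals (63.7%, 32.3% and 81.2% of all intervals), and changed no other call. The sets share only a suffix. With only the libraries compared in the fit, which leaves the average without a value, the gene counts were 6 for acetate against vehicle, 0 for acetate on etomoxir + SB204990 and 7 for etomoxir + acetate against acetate (61.5%, 0% and 73.1% of all genes), and the interval counts 6, 20 and 0 for acetate on vehicle, etomoxir and etomoxir + SB204990 (23.3%, 84.0% and 0.00156% of all intervals). Gene body sums called 5 members in acetate against vehicle. Without the etomoxir + SB204990 library of set 2 as well, chosen after seeing the data, they called 6 there, 7 for etomoxir + SB204990 against etomoxir, 3 for etomoxir + acetate against acetate and 5 for etomoxir + SB204990 + acetate against etomoxir + acetate (79.1%, 75.6%, 54.9% and 65.9% of all genes). Without an intensity trend, intervals called were 6 for acetate on etomoxir and 0 on etomoxir + SB204990 (35.9% and 0% of all). With a mean of at least 50, which leaves 5 member intervals, they were 2, 4, 5 and 5 for acetate on vehicle, etomoxir, etomoxir + SB204990 and on average (25.6%, 92.3%, 79.8% and 99.1% of all), and with no filter 4 for etomoxir + SB204990 (8.8%). The cause of these moves was not tested, except where fewer intervals or libraries entered.

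Leaving out 1 library at a time gave 0 to 4 member genes for acetate against vehicle, 2 to 7 for acetate on etomoxir, 0 to 7 on etomoxir + SB204990 and 7 to 7 for the average, while the share of all genes called moved over 0% to 61.2%, 28.8% to 92.2%, 0% to 91.4% and 81.2% to 98.5%. It gave 0 to 1 for etomoxir + SB204990 against vehicle, 0 to 7 against etomoxir, 0 to 3 for etomoxir + acetate against acetate, 0 to 3 for etomoxir + SB204990 + acetate against etomoxir + acetate, and 0 for etomoxir against vehicle and both interactions. The share of all genes called in the first 4 of these moved over 0% to 12.3%, 0% to 63.8%, 0.0103% to 43.5% and 0% to 55.6%. For intervals the ranges were 0 to 6, 2 to 17, 2 to 17 and 15 to 22 for acetate on vehicle, etomoxir, etomoxir + SB204990 and on average, and 0 to 3 for etomoxir + SB204990 against vehicle, beside 0% to 21.2%, 8.05% to 76.8%, 3.31% to 71.6%, 58.2% to 94.8% and 0.00313% to 3.95% of all intervals. For acetate against vehicle the etomoxir + SB204990 libraries gave 4 genes each when left out, and the etomoxir + SB204990 + acetate libraries 2 each. For intervals they gave 5 and 6, and 2 each. For acetate on etomoxir the intervals were 6 and 3 without etomoxir in set 1 and set 2, and 2 and 6 without etomoxir + acetate in set 1 and set 2. For acetate on etomoxir + SB204990 they were 3 and 17 without etomoxir + SB204990 in set 1 and set 2, and 2 without etomoxir + SB204990 + acetate in set 2. Etomoxir + acetate against acetate gave 3 genes without either etomoxir + SB204990 library, and etomoxir + SB204990 + acetate against etomoxir + acetate gave 2 without either of these and 3 without etomoxir + SB204990 + acetate in set 2. For etomoxir + SB204990 against vehicle, 1 interval was called without either etomoxir + SB204990 + acetate library and 3 without etomoxir + SB204990 in set 2.

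Among 567 values of named genes and intervals, 449 kept their direction and side of the threshold, 101 their direction alone, and 17 reversed. The reversals came with median-of-ratios and total-sum scaling. In the average, Vim went to -0.22 and -0.20, S100a4 (gene and interval) to -0.14 and -0.12, the Vim start interval to -0.26 and -0.25, and the Tpm2 start interval to -0.027 and -0.0090. For acetate on etomoxir, S100a4 went to -0.40 and -0.27 and Tpm1 to -0.14 and -0.011, and Tpm2 to -0.027 with median-of-ratios scaling. For acetate on etomoxir + SB204990, Vim went to -0.055 and -0.16. With 2 libraries a group and 60 to 203 reads behind the sums of Acta2, Myl9 and Cald1, changes of these genes are known less precisely than those of Tpm1 and S100a4.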

Other observations

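The 250 bases before the RefSeq starts of the members differed in composition. The windows of Myl9 and Tpm2 were the richest in G and C, at 70.0% and 69.6%, with 16 and 17 CpG dinucleotides, and that of Tpm1 had 65.2% and 19. The windows of S100a4 and Acta2 had 57.2% and 53.6% with 2 and 4 CpG, and those of Cald1 50.4% and 45.6% with 5 and 4. Those of Vim and Tagln2 had 58.4% and 60.0% with 8 and 14, and the medians over all windows were 52.4% and 6. The S100a4 start, with the fewest CpG, lay in the densest member interval. The Tpm1 start, with the most, lay in the next densest, and the Myl9 start, with 16, in none. The S100a4 density is a mean over an interval of 37613 bp, not a value at the start. A relation of density to composition was not tested.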
